A study of Rattus norvegicus with 16 samples.

Results

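The genes described here are those of the KEGG pathway Protein processing in endoplasmic reticulum, the set that the deposited table assigns to this pathway in its KEGG column. That column named 168 of the 23552 genes in the table as members, and each symbol had 1 row. The expression data came from RNA-seq of rat knee cartilage in 16 libraries, 4 per group, from animals of 10 weeks in every group. The groups were healthy cartilage, osteoarthritic cartilage, osteoarthritic cartilage given HA with cells and drug, and osteoarthritic cartilage given a coacervate with cells and drug. They are called healthy, osteoarthritic, HA and coacervate here, and HA stands for hyaluronic acid. In the names of the libraries, Sham stands for healthy and PBS for osteoarthritic. The labels used here name neither the drug, the cells nor the coacervate, and no group received a carrier, the cells or the drug alone. Whether each library is a different animal is not stated either, so p-values measure the spread between these libraries, which may be technical. In bulk tissue, fewer cells of a type and less RNA per cell cannot be told apart.

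The endoplasmic reticulum is where secreted and membrane proteins enter the secretory pathway. A nascent chain passes the Sec61 translocon, receives N-linked sugars, and folds with lumenal chaperones and disulphide isomerases before it leaves for the Golgi. Chains that fail to fold are extracted to the cytosol, ubiquitinated and degraded. When unfolded chains accumulate, the sensors Ern1 (IRE1), Eif2ak3 (PERK) and Atf6 switch on the unfolded protein response, which raises the transcription of chaperone genes. Chondrocytes carry a large folding load because they secrete collagen and proteoglycan.

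The chaperone Hspa5 (BiP, ENSRNOG00000018294) is the classical marker of this response, and its promoter is known for the endoplasmic reticulum stress response element (ERSE), which binds ATF6 and XBP1 together with NF-Y. The stretch of 250 bases before the RefSeq start of Hspa5 in the GRCr8 build is shown because it carries 1 exact match to this element. Looser copies were not searched. The motif reads CCAAT, 9 bases of any kind, then CCACG. Capitals mark its fixed letters, and it spans bases 43 to 25 before the start.
Hspa5, chr3:38452766-38453015, + strand: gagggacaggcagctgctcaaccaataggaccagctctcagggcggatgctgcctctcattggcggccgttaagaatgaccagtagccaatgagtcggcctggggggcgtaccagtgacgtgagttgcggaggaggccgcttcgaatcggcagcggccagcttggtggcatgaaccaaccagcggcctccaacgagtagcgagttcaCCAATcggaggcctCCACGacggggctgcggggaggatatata

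Windows from 250 bases before to 50 after each gene's start, taken from RefSeq (GRCr8), were matched by symbol for 133 of the 168 members. They were searched on both strands for exact matches. The ERSE was found in 9 of the 133, or 6.77%, against 21 of all 27457 genes with a window, or 0.0765%. The members were Hspa5, Hsp90b1 with 2 sites, Calr, Calr4, Canx, Xbp1, Dnajc3, Derl3 and Ero1b. Each site below is shown with 10 bases on either side, because these genes are followed as a group in the results. Capitals mark the fixed letters, which read CGTGG and then ATTGG where the motif lies on the opposite strand.
Hsp90b1 (upstream site), chr7:23012441-23012479, - strand: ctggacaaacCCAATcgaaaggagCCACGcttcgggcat
Hsp90b1 (downstream site), chr7:23012337-23012375, - strand: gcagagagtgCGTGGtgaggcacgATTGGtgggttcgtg
Calr, chr19:40213125-40213163, + strand: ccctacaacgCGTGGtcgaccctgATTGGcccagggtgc
Xbp1, chr14:84604548-84604586, + strand: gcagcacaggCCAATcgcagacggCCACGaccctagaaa
Dnajc3, chr15:102432524-102432562, + strand: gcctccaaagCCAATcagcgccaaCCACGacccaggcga
Derl3, chr20:12766591-12766629, - strand: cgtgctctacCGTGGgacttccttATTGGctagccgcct
Ero1b, chr17:92941448-92941486, + strand: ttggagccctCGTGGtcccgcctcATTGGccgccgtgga

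The related ERSE-II motif, which reads ATTGG, 1 base of any kind and CCACG, was in 3 member windows (2.26%, against 0.0619% of all genes), those of Dnajb11, Herpud1 and Hyou1. Herpud1, a scaffold of the degradation complex, has 1 site and Hyou1, a lumenal exchange factor for Hspa5, has 2, one of which is shown.
Herpud1, chr19:10614811-10614841, - strand: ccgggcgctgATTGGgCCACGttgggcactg
Hyou1, chr8:53602684-53602714, + strand: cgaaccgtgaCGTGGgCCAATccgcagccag
The UPRE, TGACGTGG, was in 9 member windows (6.77%, against 0.681% of all genes). The CARE, TGATGNAA, a motif bound by ATF4, was in 4 (3.01%, against 4.16%). A match is a description of letters in a window, not evidence of binding.

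The pathway was expressed well above the typical gene in this tissue. FPKM, the authors' value scaled to gene length and depth, reached 1 in at least 4 libraries for 158 of the 168 members, and these were tested. Their median level over the 16 libraries was 26.3 FPKM, against 8.53 FPKM for the 14337 genes tested. The 10 members left out were Calr4, Cryaa, Dnajc5b, Dnajc5g, Fbxo2, Lman1l, Mapk10, Sec31b, Tram1l1 and Ube2d4. Among them are Cryaa, a crystallin of the lens, and Mapk10, the JNK of neurons. Dnajc5b had no count in any library.

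By role, the translocon, the disulphide bond enzymes and the N-glycosylation and calnexin cycle genes had the highest median levels, at 57.6, 56.4 and 51.6 FPKM. The stress kinases and cell death factors had the lowest, at 10.8 FPKM. Among single members, Hspa8, the constitutive cytosolic HSP70, led with 475 FPKM, followed by the cytosolic HSP90 Hsp90ab1 at 396 and the lumenal lectin chaperone Calr at 386. The translocon subunit Sec61g had 209 FPKM, Hspa5 had 208, and the disulphide isomerases Pdia3 and P4hb had 198 each. The sensors were far lower, with Atf6 at 15.1, Eif2ak3 at 10.4 and Ern1 at 4.46 FPKM. Xbp1, the transcription factor spliced by Ern1, had 70.1 FPKM, but the files count whole genes and give no spliced share.

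**Figure D1:**
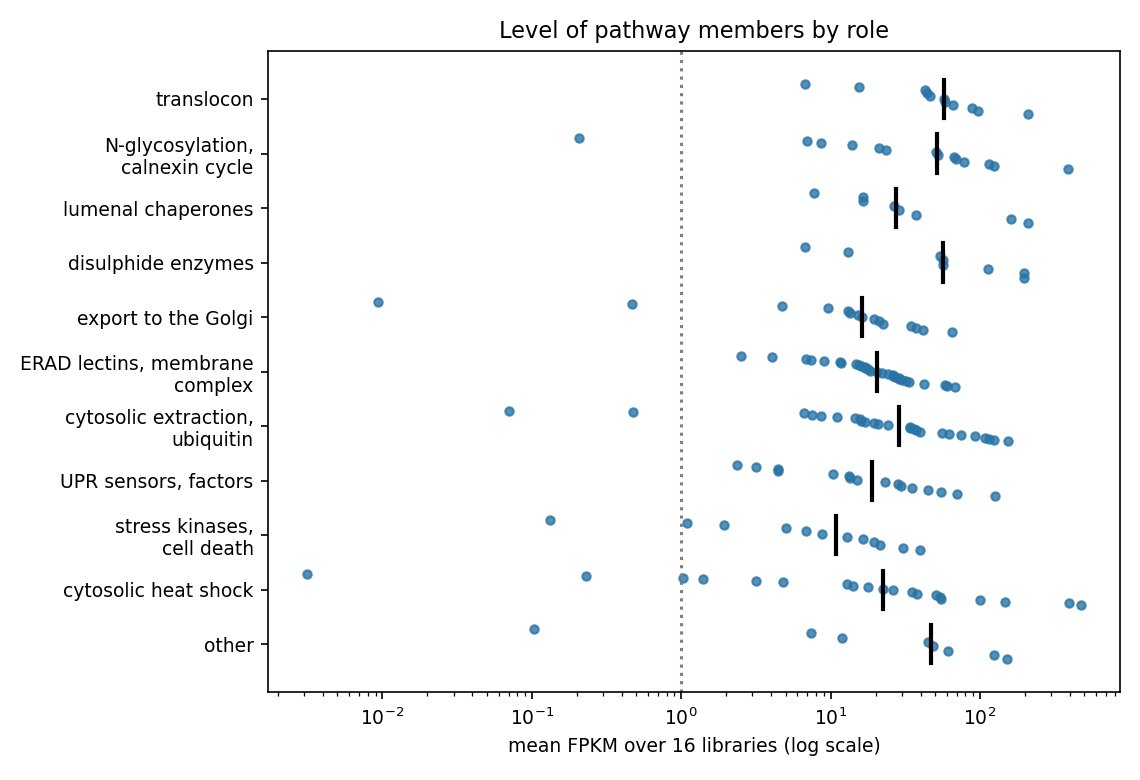
Mean FPKM over 16 libraries (log axis) of pathway members by role; each point is a gene, the black bar is the median of the role's members, and the dotted line marks 1 FPKM. Dnajc5b, with no count, is not drawn. Calr at 386 FPKM and Hspa8 at 475 FPKM lie farthest right in their roles.

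Together the members took 2.00% ± 0.122 of all counts in healthy cartilage, 1.9% ± 0.116 in osteoarthritic, 2.08% ± 0.129 in HA and 1.92% ± 0.0659 in coacervate cartilage (SD, n = 4 each). These shares overlapped between groups. Members also varied less between replicates than most genes, with a median within-group SD of 0.185 on the log2 scale against 0.26 over all tested genes. The steadiest was Canx, the membrane-bound lectin chaperone, with a coefficient of variation of 5.58% over the 16 libraries. The most variable was the inducible HSP70 gene Hspa1b, at 118%.

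The libraries held 36988722 to 50725189 counts. The chondrocyte markers, 8 of 8, were expressed in the tissue. Haemoglobin and other erythroid genes took 10.2% to 21.1% of the counts. On the first principal component, replicates 2 and 3 of the osteoarthritic group lay away from the rest. They also had the highest mean log2 level of ribosomal protein genes, at 0.964 and 0.786 relative to the average library, while the other 14 ranged from -0.396 to 0.145. Their erythroid shares, 21.1% and 20.5%, were the highest of the 16, ahead of coacervate replicate 4 at 16.4%. Their chondrocyte marker shares, 0.161% and 0.199%, were the lowest, with healthy replicate 4 next at 0.2%. Col2a1 dominated this share, with up to 148426 counts a library, against at most 33530 for any other marker listed. By mean log2 level of the markers, osteoarthritic replicate 2 was the lowest at -0.656. Osteoarthritic replicate 3, at -0.274, lay above coacervate replicates 3 (-0.556) and 2 (-0.341) and healthy replicate 4 (-0.478). Some differences from osteoarthritic cartilage are also given without osteoarthritic replicates 2 and 3. Others are not, among them those of Hspa1b and Cryab, the coacervate difference of P4hb and the median of the collagen folding genes.

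No pathway member passed an adjusted p of 0.05 in any of the 6 comparisons between groups (edgeR quasi-likelihood test, Benjamini-Hochberg adjustment over 14337 genes). Over all genes, the share that passed was 0.502% for osteoarthritic against healthy, 0.146% for coacervate against osteoarthritic, 0.16% for HA against healthy, and 0% for HA against osteoarthritic, coacervate against HA and coacervate against healthy. At an unadjusted p under 0.05 the members' share was at or below that of all genes in each comparison. It was 16 of 158 (10.1%, against 17.8% of all genes) for osteoarthritic against healthy, 10 (6.33%, against 6.34%) for HA against osteoarthritic, and 33 (20.9%, against 21.8%) for coacervate against osteoarthritic. It was 16 (10.1%, against 10.4%) for coacervate against HA, 4 (2.53%, against 8.25%) for HA against healthy, and 3 (1.9%, against 3.85%) for coacervate against healthy. DESeq2 called 3 members for osteoarthritic against healthy (2.91% of all genes), 8 for coacervate against osteoarthritic (5.91%), 3 for coacervate against HA (2.31%) and 0 for HA against osteoarthritic (0.0559%), HA against healthy (1.1%) and coacervate against healthy (0.105%). limma on log2(FPKM + 0.1) and log2(FPKM + 1) called no member. Its shares of all genes were 0.195% and 0.146% for osteoarthritic against healthy, 0.00697% under both for HA against osteoarthritic, 0.105% and 0.0976% for HA against healthy, and 0% for the others. Comparisons that share a group share its libraries and are not independent of each other.

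Hspa5 itself lies at chr3:13838304-13842762 in the rn6 coordinates of the deposited table. Its normalised CPM (counts scaled to library size and composition) were 544, 561, 741 and 565 in healthy cartilage and 583, 662, 514 and 656 in osteoarthritic cartilage. The HA libraries had 837, 744, 627 and 624 CPM, and the coacervate libraries 502, 519, 607 and 508. All 4 HA libraries lay above all 4 coacervate libraries, while the healthy and osteoarthritic ranges overlapped and healthy replicate 3 lay above every osteoarthritic library. Coacervate was lower than HA by a log2 fold change of -0.41 ± 0.14 (SE), with an adjusted p of 0.253 in edgeR's quasi-likelihood test. The difference between osteoarthritic and healthy was 0.00 ± 0.14.

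Fitted levels of the folding machinery were lower in coacervate than in HA cartilage, gene by gene by small amounts. All 8 lumenal chaperones and cofactors and all 8 genes listed as disulphide bond enzymes had negative values, with median log2 fold changes of -0.21 and -0.24. The 13 tested N-glycosylation and calnexin cycle genes were also all lower, but by less (median -0.05). None of these differences passed adjustment. Leaving out single libraries left 6 to 8 of the chaperones, 8 of the disulphide enzymes and 9 to 13 of the glycosylation genes lower. Over the 158 members 55 were higher in coacervate, or 34.8%, against 49.7% of all tested genes, and the members' median was -0.049 against -0.0015 for all genes.

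The groups did not overlap, coacervate below HA, for 16 members, or 10.1%, against 5.36% of all tested genes. Of the 16, 6 were lumenal chaperones or disulphide enzymes, namely Hspa5, Dnajb11, Pdia4, Pdia6, P4hb and Erp29. The others were Calr, the membrane protein Ckap4, the dislocation factors Derl3, Selenos and Rnf185, the export factor Preb, the translocon subunit Sec61b, the transcription factors Xbp1 and Nfe2l2, and LOC103692171, annotated as mannosyl-oligosaccharide glucosidase. In the opposite direction, 3 members (4.35% of all genes) were higher without overlap. Among them were Nploc4, a cofactor of the extraction ATPase VCP, and the deubiquitinase Yod1.

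Pdia4, a disulphide isomerase with several thioredoxin-like domains, had 194, 174, 146 and 161 CPM in HA and 124, 141, 136 and 123 in coacervate libraries. Its healthy libraries had 143, 155, 162 and 135 CPM and its osteoarthritic libraries 146, 168, 147 and 163. The healthy range overlapped that of both treated groups, and the osteoarthritic range overlapped HA but not coacervate. The difference of coacervate from HA was -0.36 ± 0.10, with an adjusted p of 0.18 in edgeR's quasi-likelihood test. Pdia4 was among the 3 members that DESeq2 called in this comparison, with Cryab and LOC103692171.

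P4hb is both a disulphide isomerase and the beta subunit of the collagen prolyl 4-hydroxylase. It had 515, 507, 496 and 497 CPM in coacervate libraries, below every library of the other 3 groups. Those were at 516 to 600 CPM in healthy, 540 to 684 in osteoarthritic and 557 to 677 in HA cartilage. The margin to the lowest healthy library was under 1 CPM. Coacervate differed from osteoarthritic by -0.32 ± 0.10 (adjusted p = 0.13, edgeR) and from healthy by -0.11 ± 0.10 (adjusted p = 1.0).

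Erp29, a small chaperone of the isomerase family, ranged from 56.5 to 70 CPM in coacervate, 73.6 to 89.6 in HA, 72.7 to 110 in osteoarthritic and 68 to 79.9 in healthy libraries. Coacervate lay below HA and osteoarthritic without overlap, by -0.39 ± 0.13 and -0.49 ± 0.13. The adjusted p values were 0.24 and 0.10 in edgeR's quasi-likelihood test. Without osteoarthritic replicates 2 and 3 the difference of Erp29 from osteoarthritic cartilage was -0.23 ± 0.10. Calr, the calcium-binding chaperone of glycoproteins, also lay below every library of the other 3 groups in coacervate cartilage, at 716 to 755 CPM against 759 to 1002 in healthy libraries. Pdia6 had 191 to 211 CPM in coacervate and 222 to 280 in HA libraries.

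**Figure D2:**
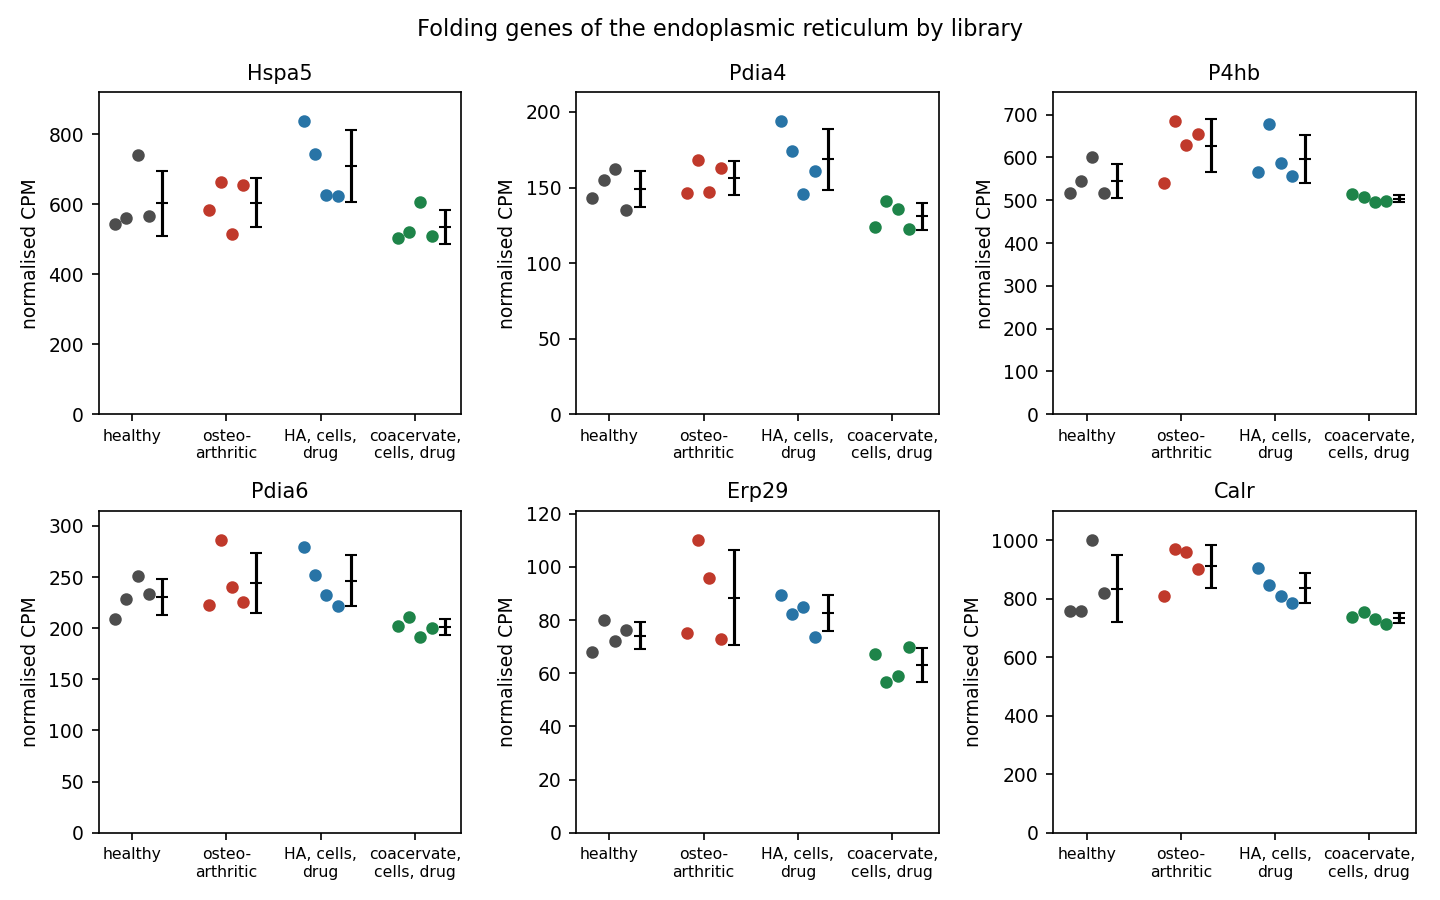
Normalised CPM of 6 folding genes in each library (points) by group, with the group mean and SD at its right (n = 4); axes start at 0. Coacervate libraries lie below HA libraries for each of the 6, for example 502 to 607 against 624 to 837 CPM for Hspa5. The genes drawn are among the members that did not overlap in this comparison, so their separation follows from that choice. Of the 16 lumenal chaperones and disulphide enzymes tested, 6 did not overlap.

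The members with an ERSE in their promoter window had lower fitted levels in coacervate than in HA cartilage, but most were already counted above. Of the tested ERSE and ERSE-II genes, only Xbp1, Derl3 and Herpud1 lie outside the chaperone, disulphide and glycosylation lists. Of the 9, 8 were tested, and all 8 were lower in coacervate than in HA, with a median of -0.21 and 4 without overlap (Hspa5, Calr, Xbp1 and Derl3). They ran from -0.78 for Derl3 to -0.03 for Canx. With the ERSE-II genes, 11 of 11 were lower, the added 3 being Dnajb11, Herpud1 and Hyou1, and 9 to 11 when single libraries were left out. The ERSE genes Hsp90b1, the lumenal HSP90, and Dnajc3, a cochaperone that also restrains PERK, were lower by -0.20 ± 0.11 and -0.22 ± 0.13. The same 8 were also lower in coacervate than in healthy cartilage (median -0.16), a comparison with the same coacervate libraries. Canx counted as lower there at -0.00064, and 96 of the 158 members were lower. In HA, 7 of the 8 were higher than in healthy cartilage (median 0.10), and 10 of 11 with the ERSE-II genes. In coacervate against osteoarthritic cartilage 7 of 8 were lower. Over all tested genes, the share higher was 49.7% for coacervate against HA and 51.1% for coacervate against healthy. It was 50.4% for HA against healthy and 48.8% for coacervate against osteoarthritic.

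The sensors and factors of the response had no common direction. Of the 16 tested genes of the unfolded protein response, 8 were higher and 8 lower in coacervate than in HA, with a median of -0.01. Ern1 differed by 0.21 ± 0.19, Atf6 by 0.09 ± 0.17 and Eif2ak3 by -0.03 ± 0.12. Ddit3 (CHOP), the transcription factor induced in prolonged stress, differed by -0.16 ± 0.17. Xbp1 had 102, 97.6, 96.3 and 90.1 CPM in HA and 68.8, 81.6, 83.3 and 84.1 in coacervate libraries, a difference of -0.28 ± 0.13 (adjusted p = 0.48, edgeR).

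Of 20 tested further targets of this response that are not in the pathway, none passed in any comparison. In coacervate against HA 12 were lower and 8 higher, with a median of -0.075. Over all tested genes the median was -0.0015 and 49.7% were higher. Creld2, a lumenal protein induced with Hspa5, differed by -0.53 ± 0.18 (adjusted p = 0.27, edgeR). Sdf2l1 and Manf differed by -0.66 and -0.38. In the other direction, Chac1, a target of the ATF4 arm, differed by 1.13 ± 0.51, with 3.5, 5.16, 12 and 2.86 CPM in coacervate libraries.

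Markers of other cells moved in the same comparison. Erythroid genes, the largest of these shares, took 11.1% to 12.3% of counts in HA and 12.7% to 16.4% in coacervate libraries, without overlap, and 10 of the 11 tested were higher in coacervate (median 0.32), none past the test. Macrophage genes took 0.759% to 0.964% of counts in HA and 0.489% to 0.671% in coacervate libraries. Lyz2 dominated this share, with up to 459397 counts a library, against at most 16524 for any other gene listed. Its mean was 5515 FPKM in HA and 3442 in coacervate cartilage. By gene, 4 of the 10 macrophage genes were higher in coacervate, with a median of only -0.06. Plasma cell genes, a list that includes the members Xbp1 and Derl3, took 0.117% to 0.143% in HA and 0.0882% to 0.113% in coacervate libraries. Of the 10, 9 were lower in coacervate, Xbp1 and Derl3 among them. Jchain dominated the plasma cell share, with up to 43124 counts a library, against at most 7173 for any other gene listed. Plasma cells are secretory cells rich in endoplasmic reticulum and known for high Derl3. Derl3 had 5.17, 3.85, 4.90 and 3.66 CPM in HA and 2.06, 3.13, 1.77 and 3.26 in coacervate libraries. B cell genes took 0.0581% ± 0.0074 in HA and 0.0558% ± 0.00867 in coacervate libraries (SD, n = 4). Chondrocyte markers took 0.379% ± 0.0729 and 0.289% ± 0.0543. Of the 8 tested, 6 were lower in coacervate and 2 higher, with a median of -0.34, none past the test. No marker on these lists was at 0, and their part in the result was not tested. HA replicate 1 was the highest of the 16 libraries for 22 members, including Hspa5, Hspa8, Hyou1 and Pdia4. That is 13.9%, against 6.07% of all genes. Without any single library the difference of Hspa5 between coacervate and HA ranged from -0.47 to -0.31.

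In osteoarthritic against healthy cartilage the members showed no common direction. Of 158, 77 were higher and 81 lower, with a median of -0.01 against 0.01 for all genes. Without osteoarthritic replicates 2 and 3, 64 were higher and 94 lower. Under limma on FPKM 42 were higher, and the median of all genes then lay at -0.108 with a pseudocount of 1. Groups did not overlap for 1 member higher in osteoarthritic cartilage (3.14% of all genes), the glycoprotein-binding F-box protein Fbxo6. They did not overlap for 7 lower members (3.19% of all genes), namely Cryab, Ero1b, Hspa1b, Hspa1l, Hspa4l, LOC108348108 and the proteasome shuttle Rad23b. Of these 7, 5 belong to or copy the cytosolic heat shock proteins.

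Ero1b, an oxidase that recharges the disulphide isomerases, had 27.5, 25.4, 29.4 and 32.5 CPM in healthy and 21.6, 20.0, 18.4 and 21.5 in osteoarthritic libraries. In HA libraries it had 25.5, 28.2, 25.5 and 25.6 CPM, above all 4 osteoarthritic libraries, and in coacervate libraries 22.5, 29.1, 18.5 and 26.0. Osteoarthritic was lower than healthy by a log2 fold change of -0.49 ± 0.13, with an adjusted p of 0.10 in edgeR's quasi-likelihood test, and DESeq2 called it. When single libraries were left out, its adjusted p ranged from 0.043 to 0.257 (edgeR). The 0.043 came without osteoarthritic replicate 1, a fit in which 7.83% of all genes passed. HA was higher than osteoarthritic by 0.36 ± 0.13 (adjusted p = 0.75). The paralogue Ero1a differed by -0.07 ± 0.16 between osteoarthritic and healthy cartilage, and by 0.24 ± 0.12 without osteoarthritic replicates 2 and 3.

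Lman2, a lectin of the export route, Bax, a mitochondrial death effector, and Atf4, the transcription factor of the PERK arm, had higher means in osteoarthritic than in healthy cartilage. Lman2 had 121, 230, 197 and 124 CPM in osteoarthritic libraries against 116 to 125 in healthy ones. Bax had 22.8, 54.5, 52.1 and 28.2 CPM against 22.1 to 30.6. Atf4 had 233, 516, 415 and 242 CPM against 237 to 297. In each the high values were those of osteoarthritic replicates 2 and 3, and the other 2 osteoarthritic libraries lay within or near the healthy range. Fitted differences were 0.48 ± 0.16, 0.62 ± 0.24 and 0.46 ± 0.20. Without those 2 libraries Lman2 differed by 0.02, Bax by -0.013 and Atf4 by -0.106.

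This split ran through the pathway. Osteoarthritic replicates 2 and 3 were the 2 highest of the 16 libraries for 39 of 158 members (24.7%, against 20.1% of all genes) and the 2 lowest for 31 (19.6%, against 19.8%). The transcript length implied by the ratio of count to FPKM differed between these sets. Its median was 1.84 kb for the 39, 5.17 kb for the 31 and 2.65 kb for the other 88 members. Over all genes the 2 corresponding sets had medians of 1.54 and 4.73 kb. Short members on the high side included the translocon subunits Sec61g, with 71.1, 192, 218 and 80 CPM in osteoarthritic libraries, and Ssr4, with 59.7, 162, 138 and 64.6. Svip, an inhibitor of degradation, had 13.8, 36.8, 43.0 and 15.6 CPM. The same 2 libraries had the highest erythroid shares of counts (21.1% and 20.5%, against 10.2% to 16.4% in the other 14). They had the lowest chondrocyte marker shares (0.161% and 0.199%, against 0.2% to 0.488%). By mean log2 level of these markers, replicate 2 was the lowest (-0.656) but replicate 3 was not next to it (-0.274). The part of transcript length, erythroid RNA or chondrocyte RNA in these values was not tested. The sensors lay on the low side. Atf6 had 88.9, 46.2, 56.3 and 94.1 CPM in osteoarthritic libraries, Ern1 had 40.0, 23.1, 24.3 and 42.2, and Eif2ak3 had 58.4, 38.8, 43.9 and 60.2.

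**Figure D3:**
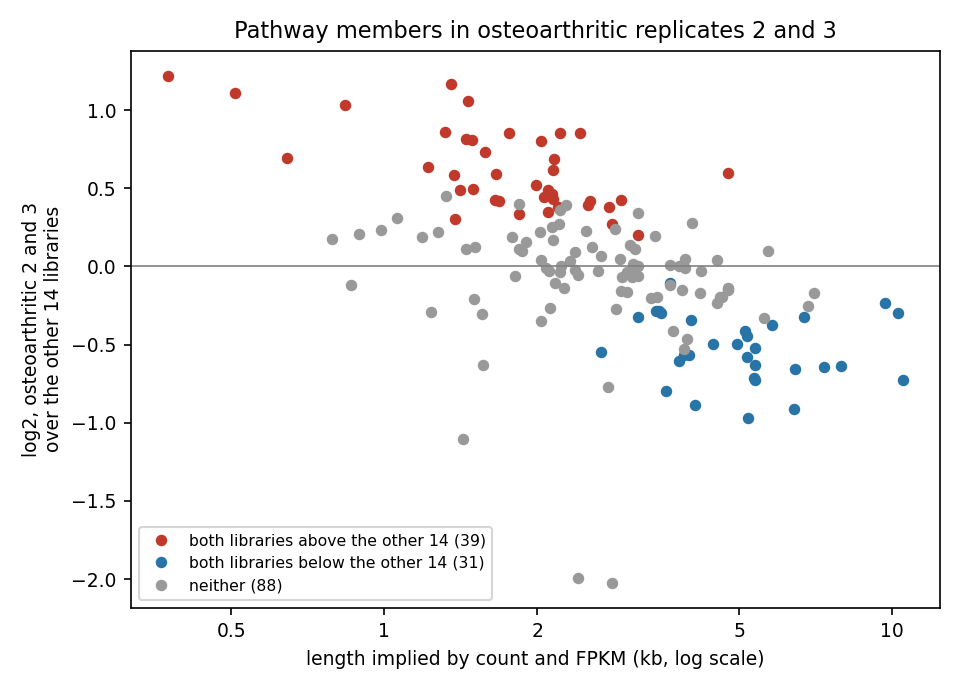
Each point is a tested member; the x axis is the transcript length implied by count and FPKM (kb, log axis) and the y axis is the log2 ratio of its mean CPM in osteoarthritic replicates 2 and 3 to its mean in the other 14 libraries. Members for which these 2 libraries were the highest of all (39) had a median length of 1.84 kb, and members for which they were the lowest (31) had 5.17 kb.

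The cytosolic heat shock proteins held the widest differences of the pathway. HSP70 and its J-domain cochaperones fold cytosolic proteins, and their inducible members answer to heat shock factor 1 rather than to the lumenal sensors. The heat shock element, GAA, TTC and GAA parted by 2 bases of any kind each time, searched on both strands and chosen after the expression values were seen, was in 4 member windows (3.01%, against 0.794% of all genes), those of Cul1, Dnaja1, Hspa8 and Hsph1. Hspa1b, Hspa1l, Cryab and LOC108348108, described below, were not among these 4, and 35 pathway members had no matched window. Hspa8 carries 2 sites and Hsph1, an HSP70 exchange factor, has 1. They are shown because both genes belong to this group. Capitals mark the fixed letters.
Hspa8 (upstream site), chr8:50080291-50080323, + strand: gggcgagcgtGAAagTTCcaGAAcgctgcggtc
Hspa8 (downstream site), chr8:50080449-50080481, + strand: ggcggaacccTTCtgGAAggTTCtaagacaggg
Hsph1, chr12:10427322-10427354, + strand: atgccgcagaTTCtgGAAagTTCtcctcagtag

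Hspa1b (rn6 chr20:4877324-4879779) had 41.2, 23.3, 36.6 and 77.9 CPM in healthy and 18, 11.9, 7.82 and 17.7 in osteoarthritic libraries. It had 46.7, 24.8, 13.1 and 15.8 CPM in HA and 25.8, 30.0, 183 and 8.22 in coacervate libraries. Every healthy library lay above every osteoarthritic one, and coacervate replicate 3 lay far above all others. Osteoarthritic was lower than healthy by a log2 fold change of -1.69 ± 0.72 (adjusted p = 0.25, edgeR). Coacervate was higher than osteoarthritic by 2.15 ± 0.73 (adjusted p = 0.14, edgeR), and that difference ranged from 0.62 to 2.52 when single libraries were left out. LOC108348108, annotated as heat shock 70 kDa protein 1A, tracked Hspa1b with a count ratio between 0.763 and 0.856 in all libraries. The 2 are near copies, and how reads were divided between them is uncertain. Summed, they had a mean of 80.5 CPM in healthy and 25.2 CPM in osteoarthritic libraries.

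The small heat shock protein Cryab, abundant in muscle, had 83.8, 110, 89.7 and 114 CPM in healthy and 65.5, 26.7, 49.9 and 42.3 in osteoarthritic libraries. The HA libraries had 57.1, 46.0, 39.1 and 58.6 CPM, and the coacervate libraries 58.3, 107, 204 and 78.4. Healthy libraries lay above all osteoarthritic and all HA libraries. Osteoarthritic was lower than healthy by a log2 fold change of -1.11 ± 0.32 (adjusted p = 0.16, edgeR). Coacervate was higher than osteoarthritic by 1.28 ± 0.33 (adjusted p = 0.10, edgeR). DESeq2 called Cryab in both comparisons. Hspa1l, an HSP70 encoded beside Hspa1b, had 3.20 to 4.63 CPM in healthy, 1 to 2.02 in osteoarthritic, 1.26 to 3.09 in HA and 1.76 to 8.22 in coacervate libraries.

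Skeletal muscle genes had lower means in osteoarthritic and HA than in healthy and coacervate cartilage. They took 0.608% to 0.903% of counts in healthy, 0.333% to 0.631% in osteoarthritic, 0.414% to 0.491% in HA and 0.588% to 1.98% in coacervate libraries. Coacervate replicate 3 had the highest share, 1.98%, as well as the highest Hspa1b, Hspa1l and Cryab. Of the 9 muscle genes tested, 9 were higher in coacervate than in HA and 8 were lower in osteoarthritic than in healthy cartilage. None of the 9 passed the test. Their part in the heat shock values was not tested.

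**Figure D4:**
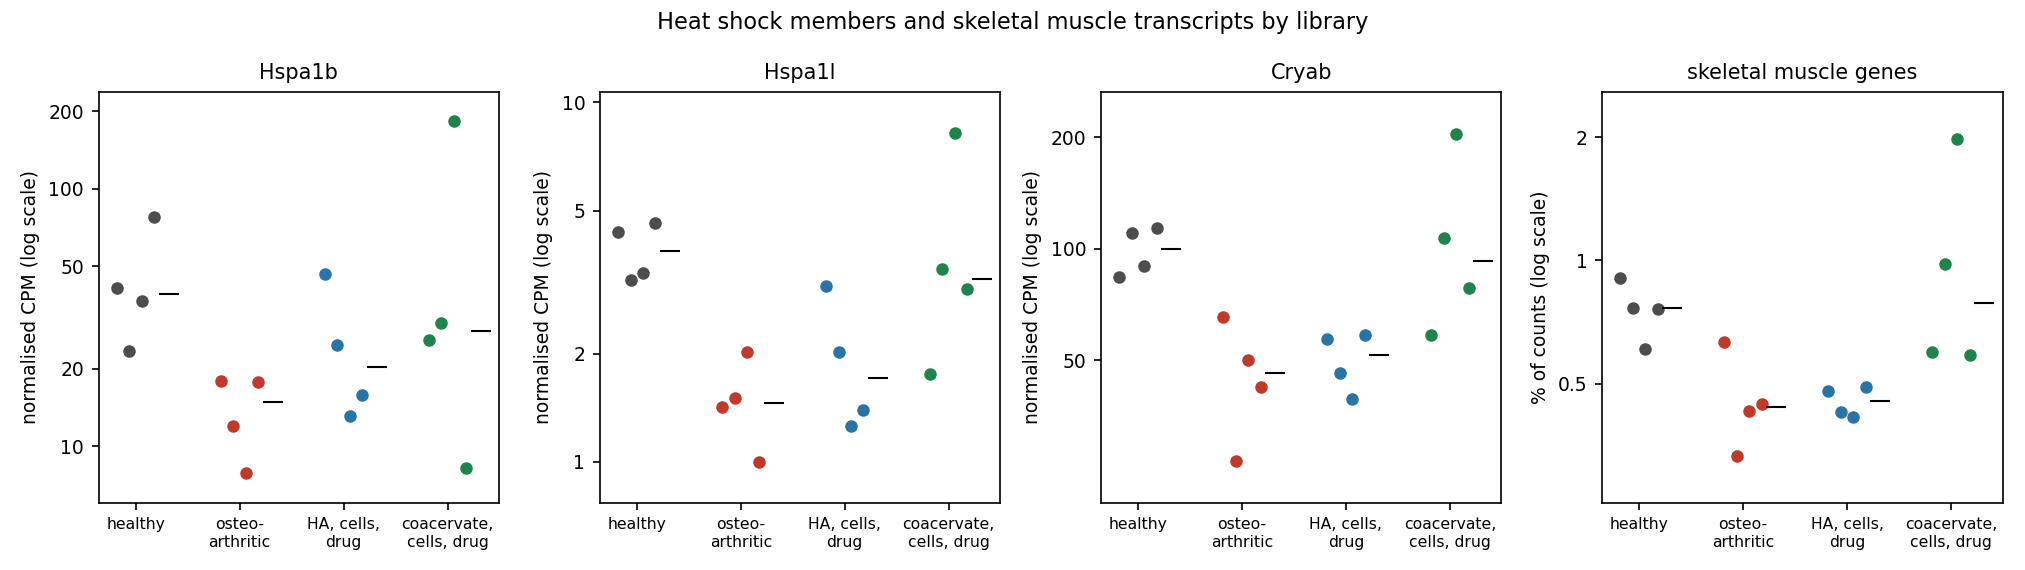
Normalised CPM of Hspa1b, Hspa1l and Cryab and the percentage of counts from skeletal muscle genes in each library (points), by group; all axes are logarithmic and bars give the group median. Coacervate replicate 3 is the highest point in every panel, at 183 CPM for Hspa1b and 1.98% for muscle genes.

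Most other cytosolic chaperones were steadier. Hspa8 had 895 to 994 CPM in healthy, 910 to 1527 in osteoarthritic, 989 to 1537 in HA and 861 to 1170 in coacervate libraries. Hsp90ab1 had 1019 to 1458 CPM over the 16 libraries. Hspa4l, an exchange factor of the HSP110 kind, had 8.97, 8.79, 8.65 and 7.62 CPM in healthy and 6.05, 7.39, 5.30 and 7.16 in osteoarthritic libraries. It had 9.97, 8.65, 8.95 and 8.13 CPM in HA libraries, above all osteoarthritic ones, by 0.46 ± 0.15 (adjusted p = 0.75, edgeR). Median changes of the 18 tested heat shock members lay between -0.08 and 0.03 in the 6 comparisons.

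HA against osteoarthritic cartilage gave small differences. Of the 158 members 92 were higher, with a median of 0.03 against -0.01 for all genes. Under limma on FPKM 129 were higher, with the median of all genes at 0.12. Groups did not overlap for 3 members higher in HA (1.08% of all genes), Ero1b, Hspa4l and the oligosaccharyltransferase subunit Stt3a. They did not overlap for 1 lower member (0.823% of all genes), the anti-apoptotic Bcl2, at 2.02 to 2.47 CPM against 2.69 to 2.96. The smallest p on the lower side belonged to the ubiquitin ligase Stub1 (CHIP), at -0.50 ± 0.17 (adjusted p = 0.75, edgeR). Stub1 had 49.8, 81.5, 82.2 and 44.4 CPM in osteoarthritic libraries and 42.8 to 48.6 in HA. The 2 high values were those of osteoarthritic replicates 2 and 3, and without them Stub1 differed by -0.04 ± 0.10.

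**Figure D5:**
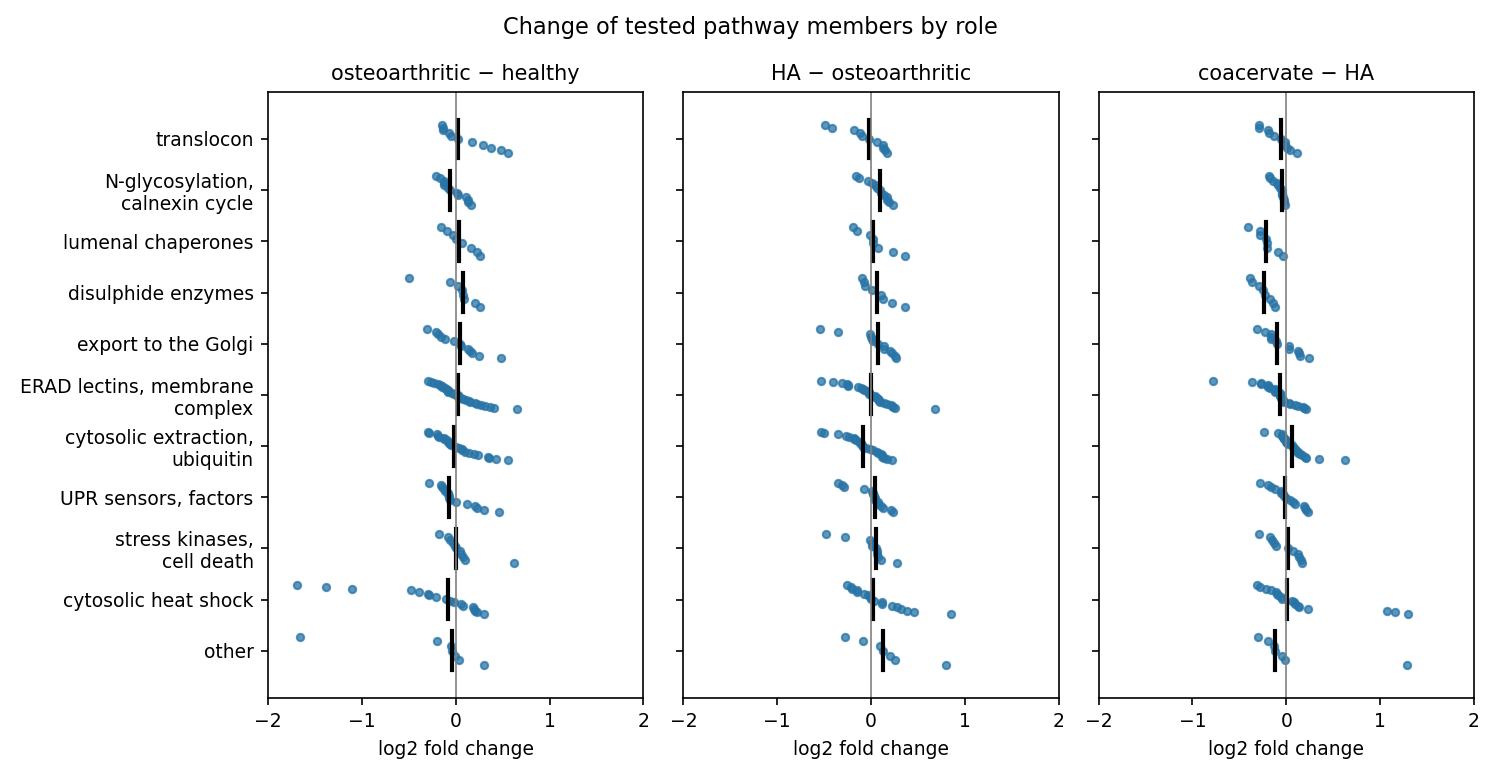
Log2 fold change of the 158 tested members (points) by role in 3 comparisons, with the role's median as a black bar. Points of the lumenal chaperones and disulphide enzymes all lie left of 0 for coacervate against HA, and the points beyond 1 in size belong to Hspa1b, Hspa1l, Cryab and LOC108348108.

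Coacervate against osteoarthritic cartilage held 7 members lower without overlap (3.13% of all genes) and none higher (2.47%). The 7 were Calr, Erp29, LOC103692171, Nfe2l2, P4hb, Pdia4 and Pdia6, of which 4 are on the list of disulphide enzymes. That list includes Erp29 as a chaperone of the isomerase family. The 8 members that DESeq2 called were Bax, Calr, Erp29, Lman2, P4hb and Stub1 on the lower side and Cryab and Hspa1l on the higher side. Bax differed by -0.77 ± 0.24, Lman2 by -0.52 ± 0.16 and Stub1 by -0.55 ± 0.17. For all 3 the high osteoarthritic values were those of replicates 2 and 3. Without those 2 libraries the differences were -0.14 ± 0.17, -0.07 ± 0.08 and -0.09 ± 0.10 in edgeR's fit. Over all members the median was -0.01, and 75 of 158 were higher (104 under limma on FPKM, with the median of all genes at 0.0908).

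Against healthy cartilage the treated groups differed little. For HA, 3 members were higher without overlap (5.08% of all genes), the mannosidase Man1c1, Nfe2l2 and the translocon-associated Ssr2, and 3 were lower (4.76%), among them Cryab and Hspa1l. For coacervate, 1 was higher (1.75%), the caspase Casp12, and 3 were lower (1.91%), Calr, P4hb and LOC103692171. LOC103692171 had 21.1, 19.2, 19.8 and 19.8 CPM in coacervate and 21.8 to 25.8 in the other 12 libraries. Its named counterpart Mogs, the glucosidase that starts trimming of the N-glycan, overlapped between coacervate and HA and differed by -0.07 ± 0.11. Reads of this pair may be divided uncertainly.

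Genes for collagen folding and export that lie outside the pathway gave 1 call among 17 tested. It was in osteoarthritic against healthy cartilage, where 0.502% of all genes passed. P4ha3, an alpha subunit of the prolyl hydroxylase that pairs with P4hb, rose in osteoarthritic against healthy cartilage by 0.74 ± 0.14 (adjusted p = 0.029, edgeR). The adjusted p lay above the threshold without any 1 of the healthy libraries (0.0529 to 0.104), without osteoarthritic replicate 3 (0.0649) or 4 (0.0562), without both replicates 2 and 3 (0.0506), in a fit of the 2 groups alone (0.179), with the replicate block (0.08), and under limma (0.129 and 0.133). It had 4.12, 5.11, 5.01 and 4.33 CPM in healthy and 6.61, 7.96, 7.66 and 8.88 in osteoarthritic libraries, with no overlap. The list's median was 0.27, with 15 of 17 higher, against a median of 0.015 and 52.1% higher over all genes. Its genes were not high in the same libraries. Plod1 had 66.3, 37.7, 35.4 and 68.1 CPM in osteoarthritic libraries, against 39.0 to 40.9 in healthy ones. Ppib had 144, 239, 208 and 164 CPM in osteoarthritic libraries. Serpinh1 (HSP47), the collagen-specific chaperone, differed by 0.49 ± 0.15 (adjusted p = 0.17, edgeR), with 291 to 363 CPM in healthy and 378 to 507 in osteoarthritic libraries. P4hb, the partner subunit in the pathway, differed by 0.20 ± 0.10 (adjusted p = 0.30, edgeR), and by 0.13 ± 0.11 without osteoarthritic replicates 2 and 3.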

How the data were processed

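RNA-seq of rat knee cartilage was analysed in 4 groups of 4 libraries, assigned from the sample titles. Per the submitters' processing notes, the genome build was rn6 and the tools listed, with no role stated, include HISAT2 2.2.1, cutadapt 1.9 and StringTie 2.1.6; the counting tool and its strand setting are not given in the sources used here. The deposited counts are whole numbers that were not normalised by the authors. Per the file headers, the same table holds FPKM, which the authors scaled for length and depth.

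Members were the genes whose KEGG column lists the pathway. Members, roles and lists were chosen with earlier results of these data known. Genes with FPKM of at least 1 in 4 or more libraries were fitted with edgeR 4.0.16 (TMM scaling, quasi-likelihood test, 1 mean per group, R 4.3.3). p-values were adjusted over 14337 genes, with a threshold of 0.05. CPM are TMM-scaled. DESeq2 1.42.0 and limma 3.58.1 on log2(FPKM + 1) and log2(FPKM + 0.1) were alternatives. The fits were tested on simulated data. Genes named in the text were a panel of marker genes, the smallest p on each side of each comparison, the highest level per role and the most variable; others were named after their values were seen, with the members that did not overlap between groups.

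Marker lists (chondrocyte, macrophage, plasma cell, B cell, erythroid, skeletal muscle, ribosomal protein) and lists of further response targets and collagen folding genes were summarised as shares, levels or counts. Promoter windows are from RefSeq (GRCr8); gene coordinates are those of the deposited table. The values of 1 member and 1 promoter site are not reported here.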

Additional observations from a re-analysis of the deposited data

Results flagged for a closer look

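In 164 groups of 4 libraries, for 41 members, the gap between 1 library and its nearest neighbour was tested against the range of the group with Dixon's criterion. It was large in 14, or 8.54%. Chance gives about 5% for genes not chosen by their values. These 41 were chosen in part for small p or large variation and include near copies, so the 2 rates cannot be compared. In healthy replicate 3, Hspa5 (741 CPM), Pdia3 (564 CPM) and Xbp1 (117 CPM) were above the other 3 libraries, and LOC103692716, a near copy of Hsp90aa1, was below them (340 CPM). In healthy replicate 4, Atf4 was high (297 CPM) and Sar1b, the GTPase of COPII vesicles, was low (45.1 CPM). Nfe2l2 was low in healthy replicate 2 (63.2 CPM).

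In coacervate replicate 3, Hspa1b (183 CPM), LOC108348108 (141 CPM) and Hspa5 (607 CPM) were above the other coacervate libraries. Atf4 was low in coacervate replicate 2 (218 CPM) and Xbp1 in coacervate replicate 1 (68.8 CPM). Ero1b was high in HA replicate 2 (28.2 CPM), and the ubiquilin Ubqln4 in osteoarthritic replicate 3 (149 CPM).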

How the results depend on the processing

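The count of members called was 0 in all 6 comparisons under edgeR with DESeq2 size factors, without the low-value filter, with limma, and with the replicate number as a block. It was not 0 in these cases. DESeq2 called 3 for osteoarthritic against healthy, 8 for coacervate against osteoarthritic and 3 for coacervate against HA. Fitting only 2 groups called 1 of 158 for HA against healthy (Cryab), against 2.72% of all genes. Leaving out osteoarthritic replicates 2 and 3 called 1 of 158 for coacervate against HA (Erp29), against 1.04% of all genes. Leaving out single libraries gave 0 to 6 for osteoarthritic against healthy, with 6 without osteoarthritic replicate 1, and 0 to 23 for coacervate against osteoarthritic, with 23 without osteoarthritic replicate 1 and 11 without osteoarthritic replicate 4; the shares of all genes in these 3 fits were 7.83%, 14.3% and 9.54%. The cause was not tested.

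Under limma with pseudocounts of 0.1 and 1, the members' median log2 difference was -0.151 and -0.142 for osteoarthritic against healthy, 0.182 and 0.168 for HA against osteoarthritic, 0.1003 and 0.0959 for coacervate against osteoarthritic, and -0.0814 and -0.0765 for coacervate against HA. With 0.1 it was -0.0605 for coacervate against healthy. Without osteoarthritic replicates 2 and 3 it was -0.0547 for osteoarthritic against healthy and 0.0687 for HA against osteoarthritic. Leaving out single libraries it ranged from -0.0219 to 0.0148 for osteoarthritic against healthy and from -0.0543 to 0.0185 for coacervate against osteoarthritic. Hspa5 in osteoarthritic against healthy was -0.126 and -0.127 under limma with 1 and 0.1, and -0.0447 to 0.125 without single libraries. Without osteoarthritic replicates 2 and 3, signs also turned for Bax (-0.0127) and Atf4 (-0.106) in osteoarthritic against healthy, and for Sar1b (0.0546) and Lman2 (0.101) in HA against osteoarthritic. In none of these was the cause tested.

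Same-numbered libraries did not deviate together. Their correlation ranged from -0.386 to 0.211 over 24 pairs and exceeded 0.1 in 4, so the replicate block, under which Hspa5 in coacervate against HA was -0.407, pairs numbers only. Keeping every row of a symbol could not differ, since each symbol had 1 row. Low members rested on few counts, such as 46 to 390 a library for Hspa1l.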
